A study of Mus musculus with 15 samples.

Results

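The 10 genes described here encode enzymes of pyrimidine and deoxynucleotide synthesis: Cad, Dhodh, Umps, Ctps, Ctps2, Uck2, Tk1, Rrm1, Rrm2 and Tyms. They were taken by gene symbol, as named enzymes of these pathways and with earlier results of these data known, and all 10 of them were found among the 55291 genes of each expression table. The question was how their RNA levels stood when glutamine (Gln) use was blocked by a drug, when Gln was withdrawn, and when tumors were treated with a prodrug. Bulk RNA-seq covered 15 samples in 5 groups of 3.

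All 5 groups came from 1 murine pancreatic ductal adenocarcinoma line, HY19636, labelled as mutant for p53 and derived from a tumor of a mouse in which Ptf1a-driven Cre acted in the pancreas. DON cells were cultures treated with DON, a Gln analog that blocks Gln-using enzymes, at 25 µM for 24 h. Gln-free cells were kept without Gln for 24 h, and control cells had neither treatment. The tumors grew from HY19636 cells placed in the pancreas of female B6J mice aged 8 to 10 weeks, and the mice received vehicle or DRP-104, a prodrug of DON. For HY19636 tumors the study's methods give DRP-104 at 3 mg per kg, started 7 days after surgery, in 2 cycles of 5 days on and 2 days off, with collection 21 days after transplantation. The labels do not say that samples of a group came from separate cultures, so p-values measure the spread between these samples.

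Cells make uridine monophosphate de novo from Gln, bicarbonate and aspartate, or recover pyrimidine nucleosides by salvage kinases. CTP synthases convert UTP to CTP with nitrogen from Gln, and CAD takes nitrogen from Gln in the first step of the pathway. Ribonucleotide reductase then makes deoxynucleotides, and thymidylate synthase makes the nucleotide that is particular to DNA. In dividing cells, transcripts of the deoxynucleotide enzymes are known to be high around S phase.

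The 9 culture libraries held 25.2 to 48.2 M reads and the 6 tumor libraries 16.3 to 20.7 M. The same 3 control libraries stand in the DON and the Gln-free table, so both comparisons share their controls. The heads of these control columns read like the vehicle samples, and they were taken as control cells because each table sets them against treated cultures and holds no other control. In the cultures, summed fibroblast markers reached at most 25.6 normalized reads and islet markers were at 0 in all 9 libraries, while fibroblast markers summed to at least 11858 in every tumor. Summed epithelial markers (Krt8, Krt18, Krt19, Epcam and Cdh1) were 323326 to 411649 in control cells, 107081 to 115027 in DON cells and 134929 to 148353 in Gln-free cells. Summed leukocyte markers were 788 to 835 in DON cells and 62.7 to 95.05 in control cells, and in DON cells nearly all of this was Cd68, while Adgre1 and Lyz2 were at 0 in all 9 culture libraries. The part of these marker differences in the members' values was not tested. DRP-104 tumor 1 had reads for 17981 genes against 22140 to 22524 in the other 5 tumors. DRP-104 tumor 3 had a T cell marker sum of 1160 against 35.8 to 70.6 in the others. Tumor results are therefore also given without both of these tumors. Those values rest on DRP-104 tumor 2 alone, set against the vehicle tumors.

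The sequence directly before the transcription start is shown for the 4 members that held one of the searched words there. The words were 4 forms of the E2F motif (TTTCCCGC, TTTCGCGC, TTTGCCGC and TTTGGCGC), the E-box CACGTG, the CCAAT box and TGATGNAA, a word bound by C/EBP and ATF factors. Both strands were read, in windows of 250 bases before and 50 bases after each RefSeq start (GRCm38.p6), and 9 of the 10 members had at least 1 window. Each stretch below has 100 bases, is printed 5′ to 3′ on the strand of its gene, and has the matched word in capitals. Rrm1 (chr7:102441595-102441694, plus strand), Rrm2 (chr12:24708154-24708253, plus strand) and 1 of 3 starts of Ctps2 (chrX:162902071-162902170, plus strand) carried CCAAT, while Tyms (chr5:30073626-30073725, minus strand) carried the E-box.
Rrm1: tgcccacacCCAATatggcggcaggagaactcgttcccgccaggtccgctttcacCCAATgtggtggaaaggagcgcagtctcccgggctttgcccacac
Rrm2: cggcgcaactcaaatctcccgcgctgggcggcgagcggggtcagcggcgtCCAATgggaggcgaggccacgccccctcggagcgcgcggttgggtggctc
Ctps2: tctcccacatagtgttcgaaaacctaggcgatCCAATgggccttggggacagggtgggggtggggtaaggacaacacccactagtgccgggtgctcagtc
Tyms: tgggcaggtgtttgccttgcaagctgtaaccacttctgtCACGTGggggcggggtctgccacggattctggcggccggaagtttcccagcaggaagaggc

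CCAAT also stood just after the start of Uck2, and 37.4% of all 32851 mouse windows held it. CACGTG stood in 7.15% of all windows. None of the members' windows held an exact E2F word, which 2.26% of all windows did, or TGATGNAA, which 3.97% did. These matches describe the letters of a window and are not measured binding sites.

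In the cultures, Ctps2 and the salvage and deoxynucleotide genes fell after DON and without Gln, most of all Tk1 and Rrm2. Of the de novo genes, Umps rose under both treatments, and Cad and Dhodh were higher after DON and lower without Gln. Levels are normalized read counts, set on 1 scale over the 9 culture libraries from recovered reads, and means carry the SD of 3 libraries. Fold changes are log2 differences fitted with limma on log2(value + 1) in the table of each comparison, with the standard error (SE) and a p-value adjusted by Benjamini-Hochberg over all genes tested. A gene was called at an adjusted p-value under 0.05.

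After DON, 9 of the 10 members were called, 3 higher and 6 lower, against 68.1% of all genes tested in either direction, 33.3% higher and 34.7% lower. Without Gln, 9 of 10 were called, 1 higher and 8 lower, against 69.4% of all genes, 34.5% higher and 34.9% lower. The 3 and 3 libraries did not overlap for 8 members after DON (71.9% of all genes) and for 9 without Gln (73.6%). All 10 members passed the minimum mean of 10 in every comparison. The share called was thus high for any gene, and the size of the changes carries more detail than the count.

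**Figure D1:**
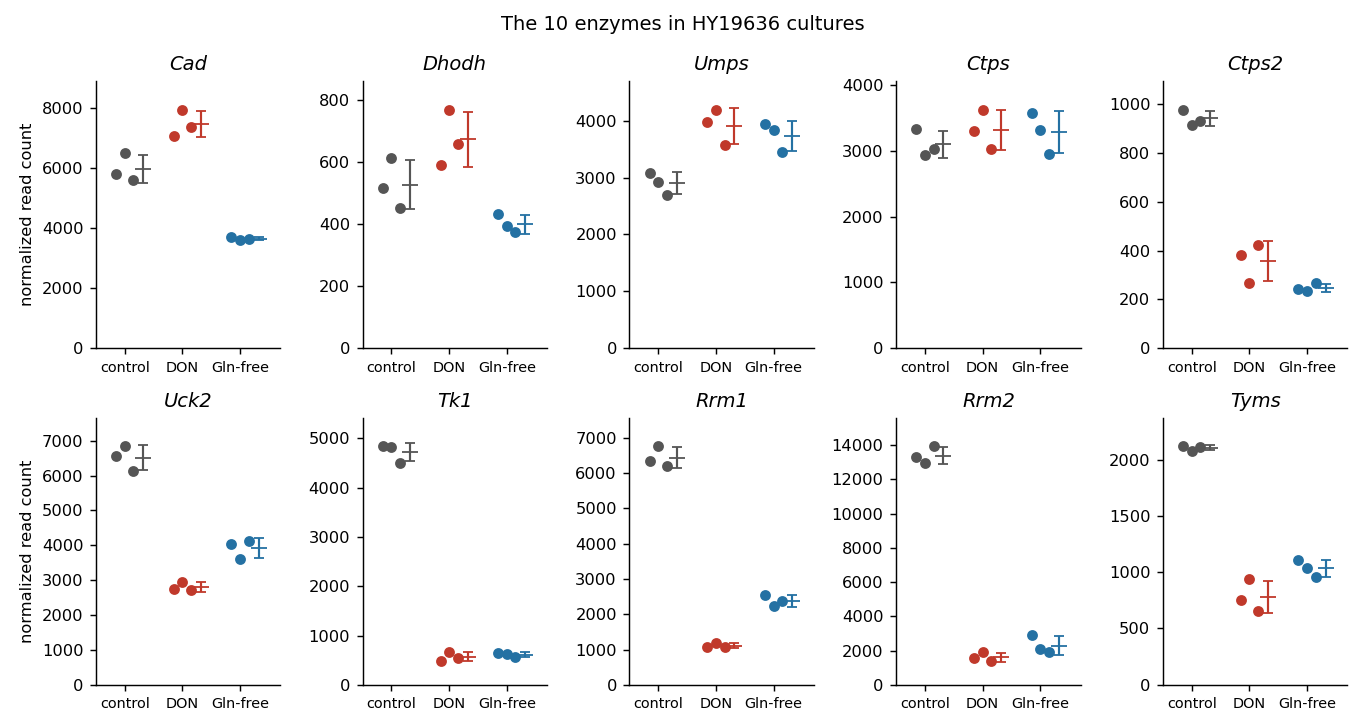
Normalized read counts (y axis, from 0) of the 10 enzymes in control, DON and Gln-free cultures (x axis). Points are the 3 libraries of a group, and the bar beside them is the mean with its SD. Tk1, Rrm1 and Rrm2 lay far below control in all 6 treated libraries, and Cad lay above control after DON and below it without Gln.

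Cad (chromosome 5, 31054780 to 31078479, GRCm38) encodes the enzyme of the first 3 steps of de novo synthesis, the Gln-dependent carbamoyl phosphate synthetase among them. Its levels were 5808, 6492 and 5612 in control cells, 7077, 7943 and 7361 in DON cells and 3695, 3610 and 3647 in Gln-free cells. All DON libraries were above, and all Gln-free libraries below, every control library. Cad rose after DON by 0.31 on the log2 scale (SE 0.09, adjusted p = 0.00736, limma) and fell by 0.68 without Gln (SE 0.08, adjusted p = 8.41e-06, limma). Between both treatments it was 2.04-fold higher in DON than in Gln-free cells (log2 1.03, SE 0.06, adjusted p = 1.28e-09, limma).

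Dhodh (chromosome 8, 109591343 to 109608673), the mitochondrial enzyme that oxidizes dihydroorotate to orotate, was the least abundant de novo gene per length. It had 516, 613 and 454 normalized reads in control cells, 592, 770 and 659 in DON cells and 432, 393 and 374 in Gln-free cells. DON and control libraries overlapped, whereas Gln-free libraries were all below control. Dhodh was higher after DON by 0.34 (adjusted p = 0.0443, limma) and lower without Gln by a log2 change of -0.37 (adjusted p = 0.0270, limma). Both calls were lost when some single libraries were left out: the adjusted p after DON reached 0.185 without DON library 2, and that without Gln reached 0.119 without control library 2. DON and Gln-free cells themselves differed by 0.75 (SE 0.11, adjusted p = 4.13e-05, limma), with no overlap.

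Umps (chromosome 16, 33954782 to 33967038) makes uridine monophosphate from orotate and was the only member that rose under both treatments. Control libraries had 3078, 2929 and 2694 normalized reads, DON libraries 3975, 4195 and 3571, and Gln-free libraries 3944, 3833 and 3442. All 6 treated libraries were above all 3 controls. The rise was 0.42 after DON (SE 0.10, adjusted p = 0.00135, limma) and 0.39 without Gln (SE 0.09, adjusted p = 0.00164, limma). DON and Gln-free cells differed by 0.07 (95% interval -0.09 to 0.22), which was not called, although quantile normalization gave 0.20 with an adjusted p of 0.0252 (limma).

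The 2 CTP synthase genes differed from each other. Ctps (chromosome 4, 120539868 to 120570276) had 3330, 2938 and 3029 normalized reads in control cells, 3296, 3627 and 3031 in DON cells and 3583, 3314 and 2947 in Gln-free cells. The 3 groups overlapped, and neither the log2 change of 0.09 after DON (95% interval -0.12 to 0.29, adjusted p = 0.435, limma) nor that of 0.10 without Gln (-0.10 to 0.31, adjusted p = 0.349, limma) was called. Ctps2 (chromosome X, 162901238 to 163032508) had 978, 916 and 932 in control cells, 382, 266 and 423 in DON cells and 243, 234 and 265 in Gln-free cells. All treated libraries had under 1 in 2 of the lowest control level. Ctps2 fell by 1.43 after DON (SE 0.16, adjusted p = 1.94e-06, limma) and by 1.90 without Gln (SE 0.12, adjusted p = 1.93e-08, limma). It was 0.50 higher in DON than in Gln-free cells (adjusted p = 0.0127, limma), a call that was lost without DON library 1 (adjusted p = 0.0579) or DON library 3 (adjusted p = 0.0729).

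Uck2, a uridine-cytidine kinase of the salvage pathway, had 6564, 6837 and 6130 normalized reads in control cells, 2750, 2953 and 2712 in DON cells and 4049, 3601 and 4119 in Gln-free cells. The 3 groups did not overlap, with DON cells lowest. Uck2 fell by 1.22 after DON (SE 0.09, adjusted p = 2.41e-08, limma) and by 0.71 without Gln (SE 0.09, adjusted p = 8.57e-06, limma). The difference between both treatments was -0.48 (SE 0.07, adjusted p = 1.48e-05, limma).

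Tk1 (chromosome 11, 117815526 to 117826092), the cytosolic thymidine kinase of dividing cells, had, with Rrm2, the largest log2 fall of the 10 genes after DON, and the largest without Gln. It went from 4837, 4833 and 4509 normalized reads in control cells to 491, 669 and 538 in DON cells and 655, 617 and 566 in Gln-free cells. The treated libraries lay far below the controls and overlapped with each other. Tk1 fell by 3.08 after DON (SE 0.11, adjusted p = 5.26e-11, limma) and fell by 2.92 without Gln (SE 0.09, adjusted p = 1.09e-10, limma). DON and Gln-free cells differed by -0.12 (95% interval -0.38 to 0.13, adjusted p = 0.365, limma).

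Rrm1 (chromosome 7, 102441695 to 102469771), the large subunit of ribonucleotide reductase and the first of the printed promoters, had 6353, 6756 and 6200 normalized reads in control cells. It had 1077, 1198 and 1060 in DON cells and 2543, 2221 and 2371 in Gln-free cells. The 3 groups were apart, and the DON level was the lowest. Rrm1 fell by 2.54 after DON (SE 0.09, adjusted p = 4.07e-11, limma) and fell by 1.41 without Gln (SE 0.08, adjusted p = 1.59e-08, limma). At -1.10 (SE 0.08, adjusted p = 1.16e-08, limma), Rrm1 had the largest drop of any member in DON relative to Gln-free cells.

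Rrm2 (chromosome 12, 24708241 to 24714146), the small subunit whose protein is known to limit the enzyme outside S phase, had the highest level of the members per length in control cells, at 13320, 12935 and 13930 normalized reads. It fell to 1566, 1901 and 1371 in DON cells and to 2902, 2063 and 1916 in Gln-free cells. No treated library reached 1 in 4 of the lowest control level, and every DON library was below every Gln-free library. Rrm2 fell by 3.08 after DON (SE 0.11, adjusted p = 4.07e-11, limma) and fell by 2.55 without Gln (SE 0.13, adjusted p = 4.30e-09, limma). The difference between both treatments, -0.50 (SE 0.14, adjusted p = 0.00488, limma), had an adjusted p of 0.0518 with DESeq2.

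Tyms (chromosome 5, 30058202 to 30073617), thymidylate synthase, had 2117, 2078 and 2114 normalized reads in control cells, 751, 937 and 657 in DON cells and 1110, 1039 and 958 in Gln-free cells. The 3 groups did not overlap, although DON library 2 and Gln-free library 3 were close. Tyms fell by 1.45 after DON (SE 0.12, adjusted p = 1.30e-07, limma) and by 1.00 without Gln (SE 0.09, adjusted p = 7.81e-07, limma). It was lower in DON than in Gln-free cells by a log2 difference of -0.42 (SE 0.11, adjusted p = 0.00479, limma).

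Set directly against each other, DON and Gln-free cells differed in 7 of the 10 members, 3 higher and 4 lower in DON cells, against 68.8% of all genes tested, 33.8% higher and 35.0% lower. The libraries of both groups were apart for 7 members (72.2% of all genes). The 3 higher members were Cad, Dhodh and Ctps2, and the 4 lower members were Uck2, Rrm1, Rrm2 and Tyms.

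Per kilobase of gene length, with the levels of the joint culture scale, control cells were led by Rrm2 (6108 ± 229 normalized reads per kb, SD, n = 3) and Uck2 (4891 ± 268). Tk1 (1898 ± 75.5) and Rrm1 (1610 ± 71.8) came next, and Dhodh was last (139 ± 21.04). In that order Ctps, Cad and Umps followed Rrm1, and Cad (837 ± 64.8) and Umps (832 ± 55.6) did not differ beyond their SD. In DON cells Uck2 (2107 ± 97.4) was first, followed by Ctps (1227 ± 110), Umps (1123 ± 90.9) and Cad (1045 ± 61.9), and the last 3 of these overlapped with their neighbours within 1 SD. Rrm2 had moved to the fifth place (735 ± 122) and Ctps2 to the last (106 ± 24.3). In Gln-free cells Umps (1073 ± 75.7) and Rrm2 (1046 ± 243) overlapped, while Cad (512 ± 5.97) stood below Rrm1 (595 ± 40.3). The length of Uck2 was taken from the longer of its 2 entries in the deposited annotation, so its place in this order is uncertain.

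**Figure D2:**
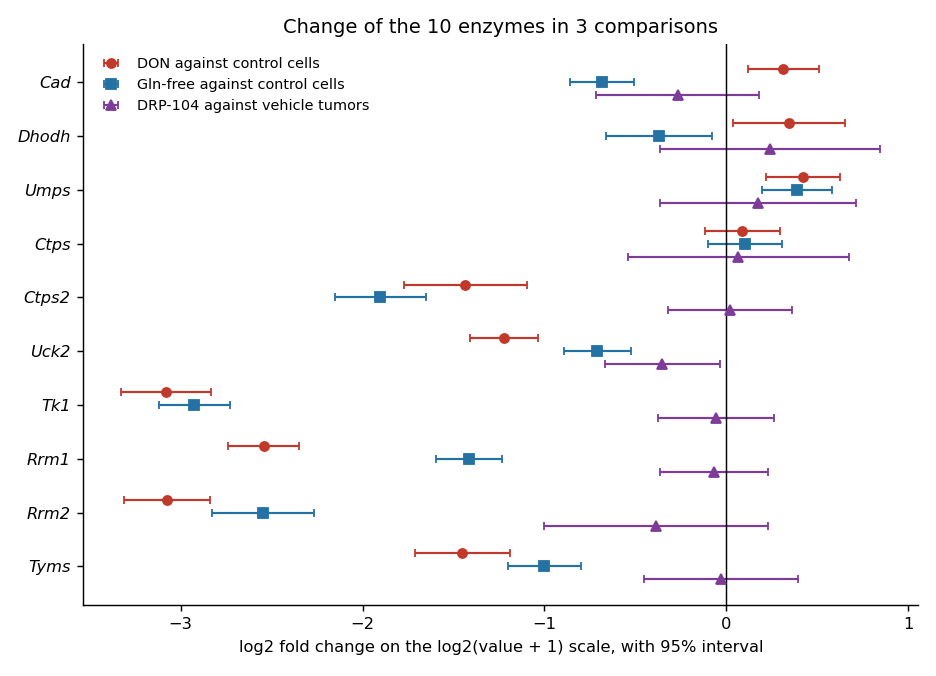
Log2 fold change (x axis, on the log2(value + 1) scale) of each enzyme (y axis) for DON against control cells (circles), Gln-free against control cells (squares) and DRP-104 against vehicle tumors (triangles). Bars are 95% intervals from limma. The culture changes of Tk1 lie near -3 and those of Ctps span 0, and 9 of the 10 tumor intervals include 0.

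In the tumors, no member was called between DRP-104 and vehicle, and limma called 0% of the 15454 genes tested. At an unadjusted p under 0.05, limma had 775 genes, Uck2 among them. With edgeR no gene was called either (863 genes at an unadjusted p under 0.05), and DESeq2 called 56 genes (951 at an unadjusted p under 0.05), none of them a member. In bulk tumors, fewer cells of a type and less RNA per cell cannot be told apart.

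Uck2 was the only member whose 3 and 3 tumors did not overlap, which 10.6% of all genes showed. It had 1618, 1655 and 1574 normalized reads in DRP-104 tumors and 2123, 2273 and 1816 in vehicle tumors. The log2 change was -0.35 (SE 0.14, 95% interval -0.67 to -0.04) with an adjusted p of 0.916 (limma), and it was -0.32 without DRP-104 tumors 1 and 3. All DRP-104 values were below all vehicle values by a margin smaller than the spread of the vehicle tumors.

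Rrm2 had 1114, 1346 and 1547 normalized reads in DRP-104 tumors and 1287, 2646 and 1531 in vehicle tumors. Vehicle tumor 2 stood above the others, and the log2 change of -0.39 (95% interval -1.01 to 0.23, adjusted p = 0.919, limma) was -0.08 without it and -0.36 without DRP-104 tumors 1 and 3. Rrm1 had 1648, 1557 and 1453 after DRP-104 and 1641, 1534 and 1711 after vehicle, a log2 change of -0.07 (95% interval -0.37 to 0.23) that was -0.06 without those DRP-104 tumors. These intervals leave out falls of the size seen in the DON cultures for both subunits, but the baselines were unlike. With cultures and tumors scaled separately, Rrm2 averaged 1821 in vehicle tumors, 13395 in control cells and 1613 in DON cells. Rrm1 averaged 1629, 6436 and 1112 in the same order. Tumors also hold other cell types, so a fall of equal size is not a like comparison.

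Tk1, at 1013, 1068 and 973 normalized reads in DRP-104 tumors and 1033, 986 and 1161 in vehicle tumors, overlapped fully (log2 change -0.06, 95% interval -0.37 to 0.26), and its change was 0.01 without DRP-104 tumors 1 and 3. Tyms likewise overlapped, at 621, 467 and 644 after DRP-104 and 652, 551 and 554 after vehicle (log2 change -0.03, 95% interval -0.45 to 0.39). Without DRP-104 tumors 1 and 3 the change of Tyms was -0.32, from the single tumor 2.

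Relative to their means, Cad, Dhodh, Umps and Ctps varied most among the DRP-104 tumors. Cad had 612, 775 and 950 normalized reads after DRP-104 and 956, 1013 and 811 after vehicle, with a log2 change of -0.27 (95% interval -0.72 to 0.18, adjusted p = 0.920, limma), which was -0.25 without DRP-104 tumors 1 and 3. Tumor 1 was the lowest and tumor 3 the highest of the 3 DRP-104 tumors for this gene. The same order held for Umps, at 629, 688 and 1130 against 779, 667 and 654, and for Ctps, at 668, 1031 and 1431 against 985, 1035 and 843. Dhodh, at 192, 164 and 279 against 181, 157 and 188, was highest in DRP-104 tumor 3. Ctps2 ranged from 638 to 766 after DRP-104 and from 661 to 722 after vehicle.

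The log2 changes were 0.24 for Dhodh, 0.17 for Umps, 0.07 for Ctps and 0.02 for Ctps2, each with a 95% interval that includes 0. Without DRP-104 tumors 1 and 3 they were -0.09, -0.02, 0.12 and -0.11. The part of T cells and of the lower number of detected genes in these values was not tested. Summed fibroblast markers also differed between the groups, at 11858 to 20749 after DRP-104 and 25264 to 48061 after vehicle, as did endothelial markers, at 962 to 1367 and 1619 to 1841. Acinar markers summed to 2510 in vehicle tumor 3 and to 155 to 988 in the other 5 tumors. The part of these cell types in the members' values was not tested.

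**Figure D3:**
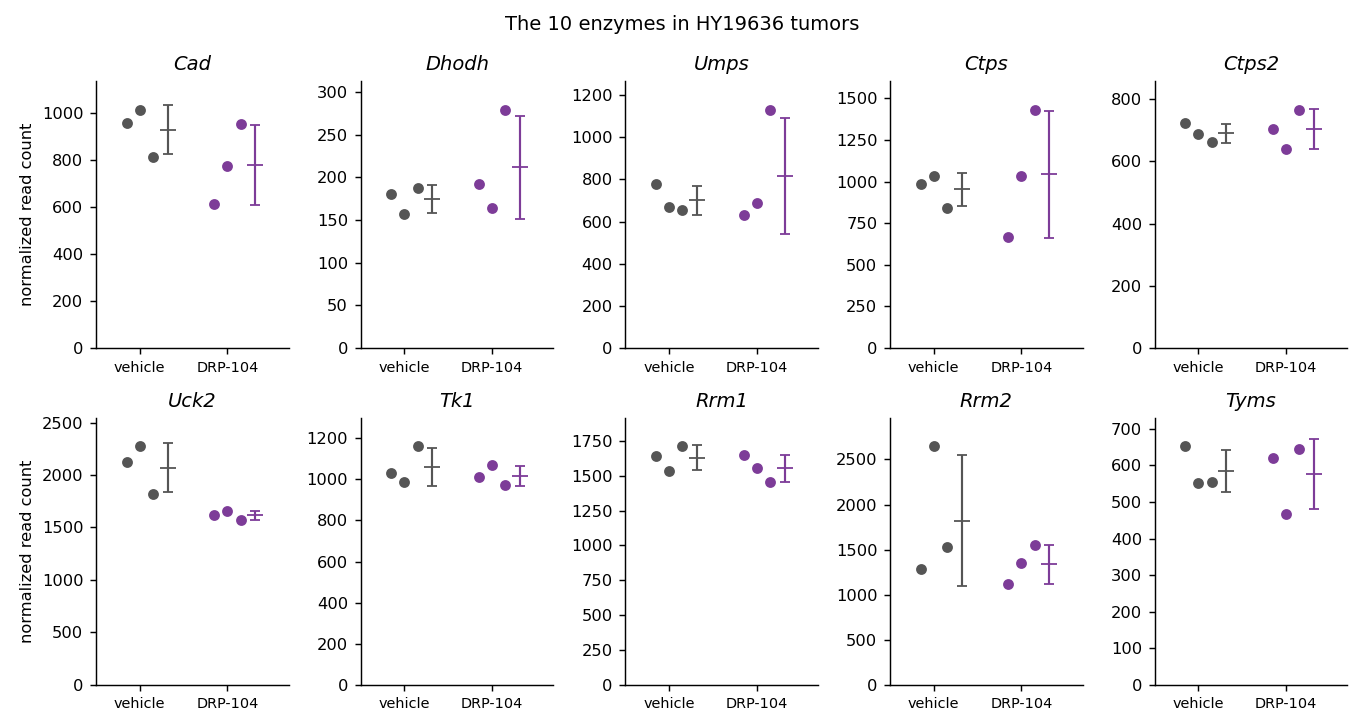
Normalized read counts (y axis, from 0) of the 10 enzymes in vehicle and DRP-104 tumors (x axis). Points are single tumors in the order 1, 2 and 3, and the bar beside them is the mean with its SD of 3. The groups overlap for 9 genes, and for Uck2 the DRP-104 tumors sit at 1574 to 1655 below the vehicle tumors at 1816 to 2273.

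A second deposited table gives FPKM for 3 DRP-104 and 3 vehicle columns. Over 10295 genes centred on their means, no FPKM column correlated with a tumor of the normalized counts above a Spearman correlation of 0.38, so the columns were not tied to these tumors. In FPKM, Uck2 was 42.9, 47.4 and 42.5 after DRP-104 and 39.0, 39.1 and 41.5 after vehicle, again without overlap but in the opposite direction. Ctps did not overlap either, at 25.9, 23.9 and 23.5 after DRP-104 and 19.9, 22.2 and 17.4 after vehicle. Its log2 change was 0.29 (adjusted p = 0.630, limma). The share of all genes without overlap was not computed in FPKM, and it was 10.6% in the normalized counts of the tumors. Cad was 18.8, 10.4 and 9.75 after DRP-104 and 9.55, 10.46 and 9.0 after vehicle, a log2 change of 0.34 that came from 1 column (adjusted p = 0.636, limma). Rrm2 was 38.1, 44.7 and 45.3 against 40.02, 68.9 and 53.3, with a log2 change of -0.30. The direction for Cad and Uck2 in the tumors thus differed between the tables, as it did for the smaller changes of Ctps2 and Tk1. In either table, 0 members were called. For Uck2, only the longer of its entries in the deposited annotation was read in FPKM, so its direction there is uncertain.

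The difference between the effect of DRP-104 in tumors and that of DON in cells was tested as an interaction, where every treated group was set against the controls of its table. It was called for 7 of the 10 members, 6 higher and 1 lower, against 33.1% of all genes tested, 19.1% higher and 14.0% lower. The difference was 3.02 for Tk1 (SE 0.18), 2.69 for Rrm2 (SE 0.31) and 2.47 for Rrm1 (SE 0.14), with adjusted p-values of 3.68e-07, 3.15e-05 and 3.46e-07 (limma). For Ctps2 it was 1.46, for Tyms 1.42 and for Uck2 0.87, with adjusted p-values up to 0.000646 (limma). These 6 genes thus stood far below control in the DON cultures and near or slightly below vehicle in the tumors. Their changes after DON alone were -3.08 for Tk1, -3.08 for Rrm2, -2.54 for Rrm1, -1.43 for Ctps2, -1.45 for Tyms and -1.22 for Uck2. With no member called in the tumors, these differences largely restate the culture falls. Cad had a difference of -0.58 (SE 0.21, adjusted p = 0.0477, limma), a call lost under 13 of 22 alternatives, with adjusted p-values up to 0.110 there. The tumors also hold other cell types, and drug, dose, time and setting differ together and cannot be told apart.

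Pairs of related enzymes were compared as log2 ratios within a library, which library scaling leaves nearly unchanged. The ratio of Ctps to Ctps2 was 1.72 ± 0.05 (SD, n = 3) in control, 3.24 ± 0.48 in DON and 3.72 ± 0.22 in Gln-free cells. The ratio of Rrm2 to Rrm1 went from 1.06 ± 0.12 in control cells to 0.53 ± 0.15 in DON and -0.07 ± 0.25 in Gln-free cells. The small subunit thus fell more than the large one under both treatments.

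Rrm2b encodes the other small subunit, which p53 is known to induce. The line is labelled as mutant for p53, and the part of p53 in the changes of Rrm2b was not tested. Rrm2b rose by 0.97 after DON (adjusted p = 0.00184, limma) and by 1.95 without Gln. The ratio of Rrm2 to Rrm2b went from 6.21 ± 0.45 to 2.16 ± 0.47 and 1.72 ± 0.14. Tk2, the mitochondrial thymidine kinase, rose by 0.73 and 0.76, and the ratio of Tk1 to Tk2 went from 3.36 ± 0.11 to -0.45 ± 0.34 and -0.33 ± 0.25. The shift was the largest of the 5 ratios after that of Rrm2 to Rrm2b.

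Uck1, the other uridine-cytidine kinase, had a log2 change of -0.13 after DON, which was not called, and rose by 0.91 without Gln. The ratio of Uck2 to Uck1 was 1.69 ± 0.12, 0.59 ± 0.03 and 0.07 ± 0.22 in control, DON and Gln-free cells. None of these 10 culture comparisons overlapped, and each had a two-sided exact permutation p of 0.1, the smallest that 3 against 3 allows, which is 0.15 when adjusted over the 15 ratio tests. Of single genes, 71.9% after DON and 73.6% without Gln did not overlap, and the share among other gene pairs was not computed. In the tumors the 5 ratios overlapped between groups, with exact permutation p-values of 0.2 to 0.9.

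**Figure D4:**
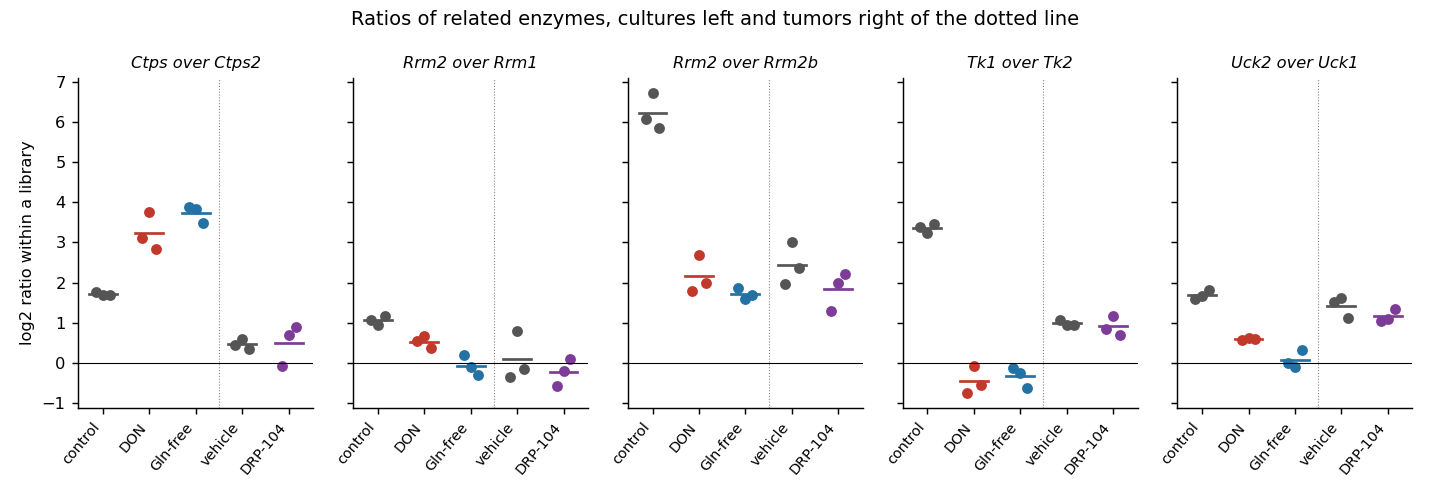
Log2 ratio of normalized counts of 2 related enzymes within a library (y axis) by group (x axis), 1 panel per pair. Points are libraries and lines are group means. In the cultures all 3 treated libraries of each group lie apart from control in every panel, and in the tumors the groups overlap. Of single genes, 71.9% after DON and 73.6% without Gln also lay apart from control.

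The neighbouring genes of the pathway were read from lists. Of 21 other pyrimidine and deoxynucleotide synthesis enzymes, 19 could be tested in the cultures, and 4 rose and 11 fell after DON, with a median log2 change of -0.39 beside 0.02 for all genes. The 15 called of 19 stand beside 68.1% of all genes tested, 33.3% higher and 34.7% lower. Without Gln 6 rose and 9 fell, with a median of -0.17 beside 0.01, and with 69.4% of all genes called, 34.5% higher and 34.9% lower. For comparison, the median of the 10 members was -1.33 after DON and -0.85 without Gln, with called members in both directions. Members and lists were chosen with earlier results of these data known, so these medians only describe the chosen genes.

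After DON the largest rises were Uckl1 (1.04), a further uridine-cytidine kinase family member, Rrm2b and Tk2. The largest falls were Cda (-2.45), the cytidine deaminase, Nme2 (-0.85), and Dctd (-0.81), the dCMP deaminase. Nme2 had a mean of only 28.5 normalized reads after DON and shares sequence with Nme1, so its value is uncertain. Without Gln the largest rises were Rrm2b, Uck1 and Nme6 (0.89), and the largest falls were Samhd1 (-1.76), which degrades deoxynucleotides, Nme4 (-1.43) and Dctpp1 (-1.29), which degrades dCTP.

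Breakdown and transport genes were mixed. After DON 2 of the 12 tested rose and 4 fell, and without Gln 5 of 11 rose and 4 fell, beside 68.1% and 69.4% of all genes called in either direction. Slc25a33, a mitochondrial pyrimidine nucleotide carrier, rose by 1.85 after DON and 1.88 without Gln, and its relative Slc25a36 by 0.57 and 0.76. Slc29a1, the equilibrative nucleoside transporter, fell, with log2 changes of -1.49 and -1.41. Upp1, the uridine phosphorylase, fell after DON (-0.98) and rose without Gln (1.26), as did Nt5e, the ecto-nucleotidase CD73 (-0.96 and 0.56). Upp2 and Slc29a2 had log2 changes of -0.90 and -0.72 without Gln, where both were called, and of -0.61 and -0.13 after DON, where neither was.

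Of 24 DNA replication and S phase genes, 2 rose and 20 fell after DON (median log2 change -0.64), and 1 rose and 15 fell without Gln (median -0.41), beside 34.7% and 34.9% of all genes called lower. In either direction, the 16 called of 24 without Gln stand beside 69.4% of all genes. Among them Ccne1, cyclin E (-2.27 and -2.14), Uhrf1 (-1.66 and -1.93), Mcm5, a subunit of the replicative helicase (-1.63 and -1.28), and Lig1, the replicative DNA ligase (-1.38 and -3.02), fell in both. E2f1 and the primase gene Prim1 rose after DON (0.79 and 0.53) and fell without Gln (-0.62 and -0.46), while Slbp fell after DON (-0.60) and rose without Gln (0.34). All 14 mitosis genes fell in both comparisons, with medians of -2.27 and -2.02, among them Plk1 (-3.51 and -3.47), Ccnb2 (-2.95 and -3.67), Top2a (-2.92 and -2.10) and Aurkb (-2.24 and -3.06). The falls of Tk1, Rrm2 and Ctps2 lay within the range of the mitosis list in both comparisons (-3.51 to -1.35 after DON and -3.67 to -1.51 without Gln). Those of Rrm1 and Tyms lay within it after DON only, and that of Uck2 in neither. The replication and S phase list ranged from -2.27 to 0.79 after DON and from -3.02 to 0.38 without Gln. The falls of Uck2, Tyms and Ctps2 lay within that range in both comparisons, and those of Tk1, Rrm1 and Rrm2 without Gln only. The part of the cell cycle in these falls was not tested. In the tumors, 0 genes of the 4 lists were called, and the list medians were -0.17 to 0.05 beside -0.01 for all genes.

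**Figure D5:**
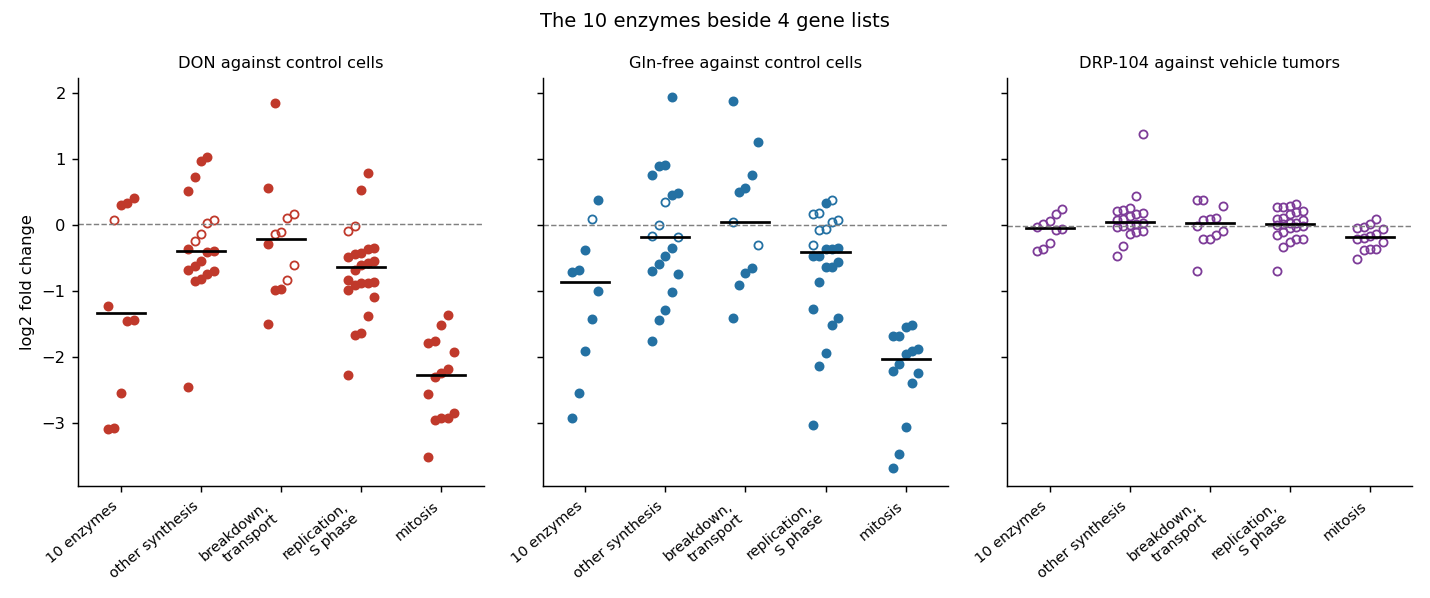
Log2 fold change (y axis) of the 10 enzymes and of 4 gene lists (x axis) in 3 comparisons. Each point is a gene, filled where the adjusted p was under 0.05, black bars are list medians and the dashed line is the median of all genes tested. The 10 enzymes have medians of -1.33, -0.85 and -0.04, between the replication list (-0.64, -0.41 and 0.02) and the mitosis list (-2.27, -2.02 and -0.17) in the 2 culture comparisons.

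Over the 9 culture libraries, and among 10430 other genes with a mean of at least 100, the patterns most like that of Cad on the log2 scale were those of Bbs9, Arfgap3 and P4ha1, each with a Pearson correlation of 0.995. Bbs9 averaged 355 normalized reads in control, 533 in DON and 150 in Gln-free cells. The patterns most like that of Rrm2 were those of Cenpa, Aurka and Kpna2, each at 0.997. Aurka averaged 3136, 646 and 826 in the same order. These 9 points are 3 groups of 3 libraries, so the correlations mostly describe the order and spacing of 3 group means.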

How the data were processed

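RNA from 9 cultures and 6 tumors was analyzed. The authors' methods name HISAT2 and DESeq2, and the submitters' processing notes also name STAR 2.5, CASAVA and GRCm39, whereas 9 of the 10 members' positions in the deposited annotation equal GENCODE M21 on GRCm38, which is used here. Counting tool and use of strand are not given in the sources used here. The deposited signal is the gene count divided by 1 size factor per sample within each table, and the deposited FPKM values are normalized for gene length and library size, with columns known by group only. The deposited gene length, in bases, gave levels per kb.

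Whole reads were recovered by dividing by the worth of 1 read, with a tolerance of 0.0051 (at least 99.96% of values in each column). Reads without molecular identifiers are not independent molecules. In the cultures 69.6% to 72.7% of genes with 1 to 20 reads had an even number, against 41.9% to 46.5% in the tumors, so depth may be overstated in the cultures. Control columns carry vehicle-like heads and were taken as control cells from their table. Because values are normalized, limma 3.58.1 in R 4.3.3 (lmFit, eBayes with trend) was the main test on log2(value + 1), for genes with a mean of at least 10, with only the 6 libraries of a comparison. The direct test of DON against Gln-free cells used the 9 libraries scaled together by median of ratios, and the interaction used the deposited tables. Ratios were tested by exact permutation (scipy 1.17.1). Tests were checked on simulated data. Alternatives were edgeR 4.0.16 and DESeq2 1.42.0 on recovered reads, other pseudocounts, filters, thresholds and scalings, FPKM, a replicate block and leaving out each library. Added after seeing the data were the block by column number and the tumors without 2 libraries.

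Members and lists were chosen with earlier results of these data known. From each list the 3 largest called rises and falls per culture comparison are named, with the partners in the ratios and the 3 genes most like Cad and Rrm2. Tables were handled in Python 3.11.15 with numpy 2.4.6 and pandas 2.3.3, and plotted with matplotlib 3.10.9. Protein sequences were not analysed here.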

Additional observations from a re-analysis of the deposited data

Results flagged for a closer look

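The effect of DRP-104 in tumors minus that of DON in cells, tested as an interaction with limma, passed an adjusted p of 0.05 for 7 members. Of all genes tested, 33.1% passed it, 19.1% higher and 14.0% lower. The log2 difference was 3.02 for Tk1, 2.69 for Rrm2, 2.47 for Rrm1, 1.46 for Ctps2, 1.42 for Tyms and 0.87 for Uck2, and these 6 were called under each of the 22 alternatives. For Cad it was -0.58, called in 10 of 23 fits with the one reported. With no member called in the tumors, the 6 positive differences largely restate the falls in the DON cultures.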

How the results depend on the processing

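With 3 libraries a group, small tumor changes were not detectable, and every reversal below concerns a value that was not called. DON calls were unaltered for 154 of 160 member values across alternatives and Gln-free calls for 154 of 160, and the others, all weaker, were those of Dhodh. In the direct comparison 163 of 170 were unaltered. Quantile normalization moved the median of all genes to 0.13 after DON, from 0.02, and the member calls after DON stayed. The cause of each change was not tested.

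DESeq2 called 56 genes between the tumors, and a threshold of 0.01 left 3007 genes in the interaction, from 4989. In FPKM the tumor changes were 0.34 for Cad, -0.10 for Ctps2, 0.15 for Uck2 and 0.014 for Tk1, and the ratio differences were 0.12 for Tk1 to Tk2 and 0.044 for Uck2 to Uck1. Without DRP-104 tumors 1 and 3 the changes were -0.091 for Dhodh, -0.021 for Umps, -0.11 for Ctps2 and 0.014 for Tk1. With edgeR the interaction of Ctps was 0.013, and 0.015 on reads divided by 2.

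Leaving out each library in turn gave tumor ranges of -0.086 to 0.34 for Umps, -0.20 to 0.35 for Ctps, -0.042 to 0.089 for Ctps2, -0.11 to 0.011 for Tk1 and -0.12 to 0.11 for Tyms. The ratio differences ranged from -0.15 to 0.33 for Ctps to Ctps2, from -0.54 to 0.028 for Rrm2 to Rrm1 and from -0.21 to 0.028 for Tk1 to Tk2. Ctps ranged from -0.058 to 0.083 between DON and Gln-free cells, and the interaction ranged from -0.32 to 0.064 for Dhodh and from -0.28 to 0.27 for Ctps. The interaction of Umps was called without DRP-104 tumor 3 (-0.51, adjusted p = 0.0284, limma). Members called ranged from 8 to 9 after DON and without Gln, from 6 to 7 directly and from 6 to 8 in the interaction. In the main fits, 68.1%, 69.4%, 68.8% and 33.1% of all genes tested were called after DON, without Gln, directly and in the interaction.

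With the replicate number as a block, 0 genes were called in the tumors, and 9237 genes and 7 members between DON and Gln-free cells. By column number, 9216 genes and 9 members were called after DON, 9056 and 9 without Gln, and 4075 and 6 in the interaction, where Cad had an adjusted p of 0.0946. Same-numbered samples did not deviate together (correlations of -0.27, 0.04 and -0.36 in tumors), so the numbers were not taken as pairs.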
